A study of Mus musculus with 4 samples.

Results

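The transcripts of TNF, its 2 receptors and the adaptors nearest to them were followed through single-cell libraries of mouse colonic organoids. The 8 genes are Tnf, Tnfrsf1a, Tnfrsf1b, Tradd, Ripk1, Traf1, Traf2 and Traf3. They were chosen by symbol, and all 8 were found once each among the 30360 genes of the deposited matrix. Colonic organoids are cultures grown in a gel from isolated crypts, and these cultures also held mesenchymal cells.

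The series set cultures of Tnfr2-/- mice, in which the gene of TNF receptor 2 (Tnfrsf1b) is targeted, against wildtype ones, each with and without TNF. There were 4 groups with 1 library each: wildtype untreated (labelled Vehicle), wildtype with TNF, Tnfr2-/- untreated and Tnfr2-/- with TNF. The TNF groups received 20 ng/ml from day 1 to day 6, and all cultures were harvested on day 7, after passage 5, from mice labelled as 16 weeks old. Tnfr2-/- is a germline allele of Tnfrsf1b, so the epithelial and the mesenchymal cells carry it alike. Neither genotype carried a further allele or agent in the labels. With 1 library a group there is no replicate check and no p-value. All intervals below are 95% intervals that cover counting error only.

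TNF is a cytokine that is made as a membrane protein and shed. Its receptor TNFR1, encoded by Tnfrsf1a, carries a death domain that recruits TRADD and RIPK1. TRAF2 then joins with ubiquitin ligases, which leads to NF-κB activation or, from a second complex, to cell death. TNFR2 lacks the death domain and binds TRAF2 directly, together with TRAF1 and TRAF3, and TRAF3 restrains the non-canonical NF-κB arm. In the gut, TNF comes largely from immune cells and is a main cytokine of colitis.

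The libraries held 980 to 2589 cells, with medians of 26293 to 39112 unique molecular identifiers (UMIs, 1 per captured transcript molecule) per cell. The deposited annotation has 7 epithelial and 4 mesenchymal classes, with 4172 and 1948 cells, and 35 cells without a class. The median mitochondrial share was 3.28% to 5.66%, highest in Tnfr2-/- with TNF. The libraries shared 3 cell barcodes. Levels are given as CPM, the UMIs of a gene for each 1000000 UMIs of the cells summed. The summed level of 5 epithelial markers was 10509 to 13374 CPM in the epithelial classes and 127 to 763 CPM in the mesenchymal ones. That of 7 mesenchymal markers was 9202 to 15086 CPM in the mesenchymal classes and 5.21 to 22.8 CPM in the epithelial ones. Ptprc, the pan-leukocyte antigen CD45, had 0 to 3 UMIs among all epithelial cells of a library and 0 among the mesenchymal cells.

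The genes lie on 7 chromosomes (GENCODE M21 annotation, GRCm38). Tnf (ENSMUSG00000024401) is at chr17:35199381-35202007 on the minus strand. Tnfrsf1a (ENSMUSG00000030341) is at chr6:125349362-125362484 on the plus strand, and Tnfrsf1b (ENSMUSG00000028599) at chr4:145213463-145246870 on the minus strand. Tradd (ENSMUSG00000031887) is at chr8:105258286-105264609 on the minus strand and Ripk1 (ENSMUSG00000021408) at chr13:34002363-34037147 on the plus strand. Traf1 (ENSMUSG00000026875, chr2:34941750-34961772) and Traf2 (ENSMUSG00000026942, chr2:25517982-25546940) share chromosome 2 on the minus strand. Traf3 (ENSMUSG00000021277) is at chr12:111166370-111267153 on the plus strand. The libraries read the 3′ end of a transcript, which for Tnfrsf1b is the last of 10 exons, at chr4:145213463-145216100. Which part of the gene the Tnfr2-/- allele alters is not stated in the labels or the methods. UMIs of this gene can therefore test neither the label of a library nor whether its cells lack the protein.

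The DNA just before the annotated start is shown for 5 genes. Tnf, Tnfrsf1b and Traf1 are the members that were at least 2-fold higher with TNF in epithelial or mesenchymal cells of either genotype. Tnfrsf1a is the other receptor, and Traf3 holds the only match to the NF-κB consensus among the 7 members searched. Each line gives the 250 bases before the start, 5′ to 3′ on the gene's strand, from RefSeq on GRCm38.p6. These are chr17:35202008-35202257 (minus) for Tnf, chr4:145246871-145247120 (minus) for Tnfrsf1b, chr6:125349473-125349722 (plus) for Tnfrsf1a, chr2:34961773-34962022 (minus) for Traf1 and chr12:111166120-111166369 (plus) for Traf3. Capitals mark matches, on either strand, to the 10-letter NF-κB consensus, to its shorter form GGAANNNCC, to the AP-1 site TGACTCA or to the TATA box TATAAA.
Tnf: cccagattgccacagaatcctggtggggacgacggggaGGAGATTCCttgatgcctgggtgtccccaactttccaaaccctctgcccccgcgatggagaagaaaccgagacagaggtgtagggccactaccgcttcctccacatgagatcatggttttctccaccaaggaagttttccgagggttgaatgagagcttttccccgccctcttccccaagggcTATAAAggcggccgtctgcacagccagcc
Tnfrsf1b: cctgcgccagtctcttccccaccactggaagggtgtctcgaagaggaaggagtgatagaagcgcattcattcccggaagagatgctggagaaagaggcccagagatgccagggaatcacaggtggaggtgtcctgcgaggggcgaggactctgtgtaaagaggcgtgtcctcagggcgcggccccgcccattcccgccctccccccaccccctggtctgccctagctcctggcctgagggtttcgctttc
Tnfrsf1a: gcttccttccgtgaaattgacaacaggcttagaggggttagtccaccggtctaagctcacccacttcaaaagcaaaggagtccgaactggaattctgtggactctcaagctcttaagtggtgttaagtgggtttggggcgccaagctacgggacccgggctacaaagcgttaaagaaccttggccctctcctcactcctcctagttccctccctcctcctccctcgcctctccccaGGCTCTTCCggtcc
Traf1: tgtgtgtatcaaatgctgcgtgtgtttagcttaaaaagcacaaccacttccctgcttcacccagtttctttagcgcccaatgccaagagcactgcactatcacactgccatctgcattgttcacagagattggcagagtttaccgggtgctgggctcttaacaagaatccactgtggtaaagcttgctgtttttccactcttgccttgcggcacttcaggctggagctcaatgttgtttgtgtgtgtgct
Traf3: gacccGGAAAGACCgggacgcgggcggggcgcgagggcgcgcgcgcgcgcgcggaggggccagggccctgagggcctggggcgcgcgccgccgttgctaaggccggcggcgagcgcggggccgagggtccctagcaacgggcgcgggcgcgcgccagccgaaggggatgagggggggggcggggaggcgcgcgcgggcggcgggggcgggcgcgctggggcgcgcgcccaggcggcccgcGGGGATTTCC
Tnf has a GGAANNNCC match on the opposite strand that begins 212 bases before the start, and a TATAAA that begins 29 bases before it. Tnfrsf1a has a GGAANNNCC match, on the opposite strand, that begins 14 bases before the start. Traf3 has GGGGATTTCC, a match to the NF-κB consensus, in the last 10 bases before its start, where it overlaps a GGAANNNCC match, and another GGAANNNCC match at 245 bases. Tnfrsf1b and Traf1 have no match to the 4 patterns in this window, and neither have Ripk1 and Traf2, whose sequence is not shown. RefSeq entries were found for 7 of the 8 genes, all but Tradd, which was not searched. They are 8 entries in all since Ripk1 has a pair of them. Among the 32851 promoter windows of the same length, the consensus was found in 5%, GGAANNNCC in 15.7%, TGACTCA in 4.46% and TATAAA in 12.4%. A match describes letters only, and nothing about binding follows from it or from its absence.

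**Figure D1:**
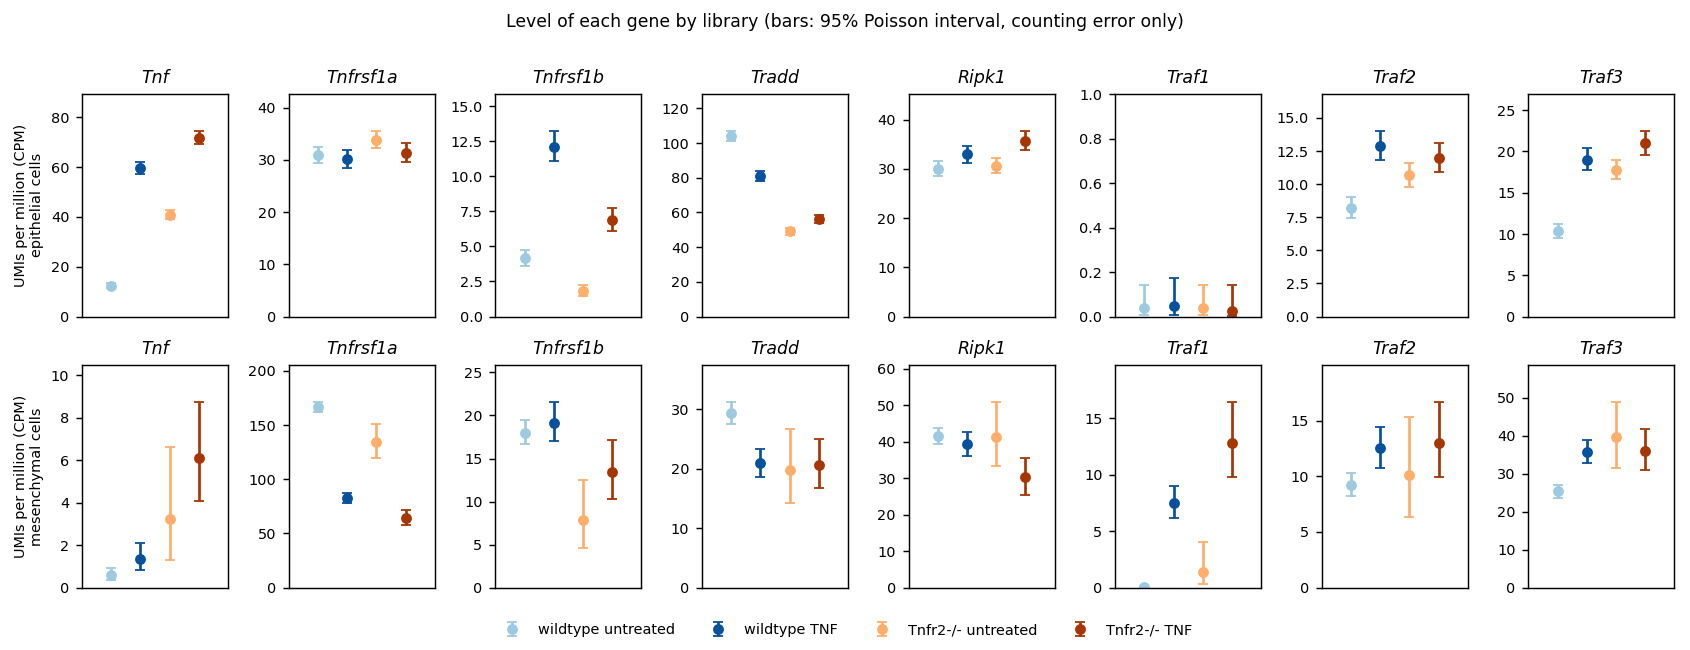
Level of each gene (CPM, linear axis from 0) in epithelial cells (upper row) and mesenchymal cells (lower row) of the 4 libraries. Points are 1 library each and bars are 95% Poisson intervals. Tnf ranged from 12.5 to 71.7 CPM in epithelial cells and from 0.603 to 6.08 CPM in mesenchymal cells, and Traf1 stood above 5 CPM only in the mesenchymal cells of the 2 TNF libraries.

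Tnf, the gene for the ligand, was found mostly in the epithelial cells. It was at 12.5 CPM in wildtype untreated epithelial cells, 59.6 CPM in wildtype with TNF, 40.9 CPM in Tnfr2-/- untreated and 71.7 CPM in Tnfr2-/- with TNF. The 4 intervals did not overlap, with the lowest level in wildtype untreated and the highest in Tnfr2-/- with TNF. It was 4.78-fold higher with TNF than without in wildtype cells (4.38 to 5.23) and 1.75-fold higher in Tnfr2-/- cells (1.65 to 1.85). Tnfr2-/- cells had 3.29 times the wildtype level without TNF (3.00 to 3.60) and 1.20 times with TNF (1.14 to 1.27).

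Inside the 2 large progenitor classes the Tnf ratios above 1 were smaller than over all epithelial cells, and 1 contrast had the other direction. For TNF in wildtype, Progenitor.1 was close to all epithelial cells, which stood at 12.5 and 59.6 CPM. Progenitor.1 and Progenitor.2 are the largest epithelial classes, and each has cells in all 4 libraries. In Progenitor.1, Tnf was at 13.7 CPM in wildtype untreated, 63.8 CPM in wildtype with TNF, 34.1 CPM in Tnfr2-/- untreated and 47.2 CPM in Tnfr2-/- with TNF. With TNF, the Tnfr2-/- level was thus 0.74 of the wildtype level in this class (0.641 to 0.85). In Progenitor.2, Tnf was at 39.3 CPM in wildtype untreated, 71.7 CPM in wildtype with TNF, 75.6 CPM in Tnfr2-/- untreated and 76.8 CPM in Tnfr2-/- with TNF. The last 3 of these levels had overlapping intervals, and the ratio of TNF to untreated in Tnfr2-/- was 1.02 (0.936 to 1.10). Progenitor.2 had more Tnf than Progenitor.1 in each of the 4 libraries, with intervals that overlapped only in wildtype with TNF. Its cells were 62 of 1128 epithelial cells in wildtype untreated, 273 of 1163 in wildtype with TNF, 233 of 1023 in Tnfr2-/- untreated and 716 of 858 in Tnfr2-/- with TNF. Its share of cells and the pooled Tnf level were therefore both lowest in wildtype untreated and both highest in Tnfr2-/- with TNF. With both progenitor classes weighted equally, the log2 difference in Tnf was 1.32 for TNF in wildtype and 0.17 for TNF in Tnfr2-/-, against 2.17 and 0.79 over all epithelial cells. This weighting gives the 62 Progenitor.2 cells of wildtype untreated, at a median of 15574.5 UMIs, as much weight as its Progenitor.1 cells.

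The other epithelial classes held less Tnf. In Secretory-Reg4-Spdef-Lyz1 it was at 10.9 CPM in wildtype untreated, 42.1 CPM in wildtype with TNF and 16.3 CPM in Tnfr2-/- untreated. In Progenitor.3 it was at 1.36 CPM (2 UMIs), 15.8 CPM (27 UMIs) and 3.77 CPM (2 UMIs) in the same libraries. Enteroendocrine cells had 1 UMI without TNF and 7 UMIs with TNF in wildtype. Absorptive cells reached 30 cells in wildtype untreated only and held 9.22 CPM there, and Secretory-Reg4-Ang4 cells did so in wildtype with TNF only and held 21.6 CPM, at a median of 1958 UMIs a cell.

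Markers of immune cells were read beside this, since those cells are a common source of TNF. The summed level of 7 such genes in epithelial cells was 2.09 CPM in wildtype untreated and 4.26 CPM in wildtype with TNF. It was 4.54 CPM in Tnfr2-/- untreated and 12.6 CPM in Tnfr2-/- with TNF. Most of it was Cd68, a lysosomal protein gene, with 91, 161, 214 and 494 UMIs in that order. It was through Cd68 that the sum was lowest and highest in the same libraries as Tnf. Of the other immune genes, Adgre1 had 0 or 1 UMI a library, Cd3e 0 or 1, Itgam 1 to 4, and Cd79a and Lyz2 at most 6, and 0 to 4 of the 7 genes were at 0. In Tnfr2-/- with TNF, where Tnf was highest, Ptprc, Cd3e, Adgre1 and Lyz2 had 0 UMIs, and Itgam and Cd79a 4 each. The part of such cells in the Tnf level was not tested.

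A minority of epithelial cells had a Tnf UMI once depth was made equal. After each cell was thinned to 5000 UMIs, which left out 12 to 290 epithelial cells a library, 4.24% of wildtype untreated epithelial cells had a Tnf UMI (46 of 1085, 3.12% to 5.61%). The share was 20.6% in wildtype with TNF (18.0% to 23.5%), 15.4% in Tnfr2-/- untreated (13.2% to 17.8%) and 24.6% in Tnfr2-/- with TNF (21.7% to 27.6%). These shares stand in the order of the CPM values. Without thinning they were 26.6%, 50.6%, 50.9% and 66.9% in the same order of libraries, at median depths of 37246, 30306, 41057 and 37369 UMIs a cell. Over all epithelial cells, Tnf was also less evenly spread over cells than the other members. The variance of its thinned counts was 1.40 to 1.88 times their mean in the 4 libraries. For Tradd this was 0.98 to 1.43, and for the other members with 20 or more thinned UMIs 0.95 to 1.17. Where Tnf had that many UMIs, it was at 1.54 to 1.92 within Progenitor.2 but at 1.07 to 1.26 within Progenitor.1. In Progenitor.1 of wildtype untreated it was below Tradd, at 1.18 against 1.21. Before thinning, the 10% of epithelial cells with most Tnf UMIs held 66.0% of its UMIs in wildtype untreated, 49.0% in wildtype with TNF, 51.9% in Tnfr2-/- untreated and 47.7% in Tnfr2-/- with TNF.

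Mesenchymal cells had little Tnf. It was at 0.603 CPM (21 UMIs), 1.36 CPM (20 UMIs), 3.22 CPM (7 UMIs) and 6.08 CPM (29 UMIs) in wildtype untreated, wildtype with TNF, Tnfr2-/- untreated and Tnfr2-/- with TNF. After thinning, 1 to 3 cells a library had a Tnf UMI, between 0.212% and 1.67% of cells, below each epithelial share. Without thinning the shares were 0.769%, 4.90%, 3.33% and 8.20% in the same order of libraries, at median depths of 22643, 48633, 24549 and 37645 UMIs a cell. The level was set beside Krt8, an epithelial keratin. Per 1000 Krt8 UMIs there were 11.7 Tnf UMIs in the mesenchymal cells of wildtype untreated (7.24 to 17.9) and 2.65 in its epithelial cells. The ratios were 61.2 (37.4 to 94.5) and 14.6 in wildtype with TNF, 130 (52.1 to 267) and 11.9 in Tnfr2-/- untreated, and 25.9 (17.4 to 37.3) and 16.7 in Tnfr2-/- with TNF. The mesenchymal ratio was thus the higher one in all 4 libraries. Mesenchymal cells with no UMI of Krt8, Krt18 or Epcam were read apart. In wildtype they were 618 of 1430 cells untreated and 57 of 306 with TNF, and held 2 and 7 Tnf UMIs. In Tnfr2-/- they were 36 of 90 cells untreated and 30 of 122 with TNF, and held 0 and 2 Tnf UMIs. The Tnf levels in them are 0.146, 3.25, 0 and 2.12 CPM in the same order of libraries, and the 0 allows up to 4.06 CPM. With TNF the intervals were 1.31 to 6.71 CPM in wildtype and 0.257 to 7.67 CPM in Tnfr2-/-. They overlap, so which library was higher in these cells cannot be told. In all mesenchymal cells the summed epithelial markers were at 244, 215, 127 and 763 CPM in the same order of libraries, and Krt8 alone at 51.6, 22.2, 24.8 and 234 CPM. Krt18 alone was at 112, 155, 25.3 and 183 CPM, above Krt8 in both wildtype libraries. In wildtype with TNF, 2283 of the 3165 UMIs of the epithelial markers were of Krt18. Whether this Krt18 came from epithelial cells was not tested. The summed immune markers were at 5.03, 2.11, 2.30 and 16.8 CPM there. In wildtype untreated 132 of their 175 UMIs were of Lyz2, and in Tnfr2-/- with TNF 79 of 80 were of Cd68. Ptprc, Cd3e and Itgam had 0 UMIs in the mesenchymal cells of each library. The part of immune cells in this Tnf was not tested.

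**Figure D2:**
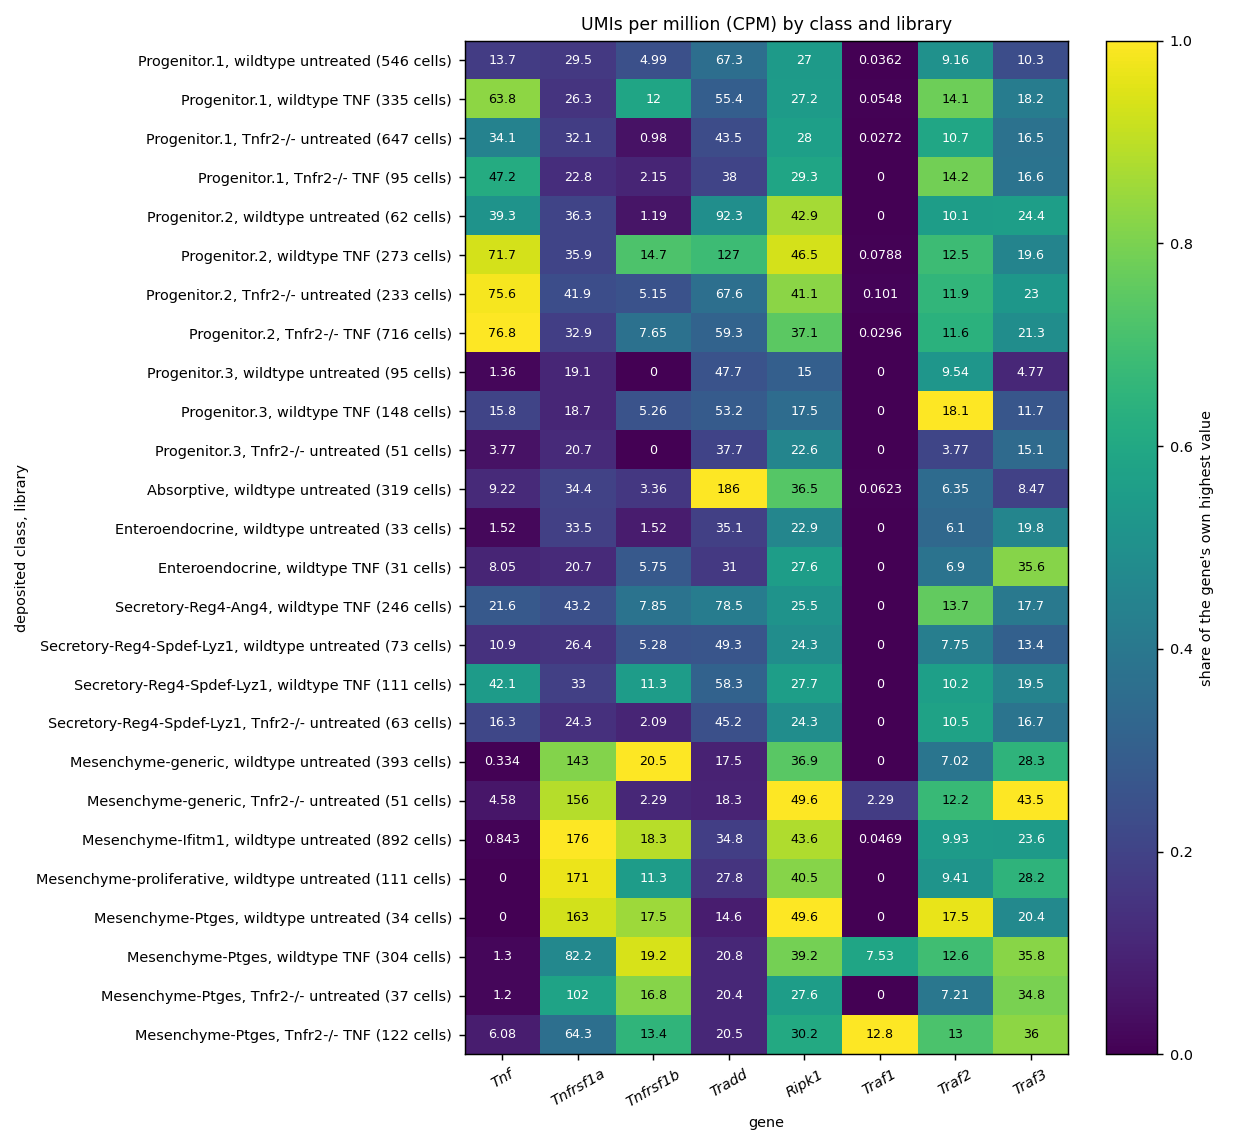
Level of each gene (numbers, CPM) in every deposited class and library with at least 30 cells. Colour is the level as a share of the gene's own highest value, so colours compare rows within a column. Tnf was highest in Progenitor.2, Tradd in Absorptive cells and Tnfrsf1a in the mesenchymal classes, and Traf1 was above 5 CPM only in Mesenchyme-Ptges of both TNF libraries.

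The 2 receptors had different patterns. Tnfrsf1a, the gene for the broadly expressed receptor, stood within 30.1 to 33.9 CPM in the epithelial cells of all 4 libraries. Its ratio of TNF to untreated was 0.97 in wildtype (0.904 to 1.05) and 0.93 in Tnfr2-/- (0.861 to 0.997). The second of these changed direction with other scalings of the libraries, to a log2 difference of 0.05 with TMM factors and 0.06 with median-of-ratios factors. Across epithelial classes Tnfrsf1a ranged from 18.7 CPM in Progenitor.3 to 43.2 CPM in Secretory-Reg4-Ang4, both in wildtype with TNF, and the latter rests on 22 UMIs.

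Tnfrsf1b was the receptor transcript that differed by 2-fold or more with TNF in the epithelium. It was at 4.17 CPM (210 UMIs) in wildtype untreated, 12.1 CPM (501 UMIs) in wildtype with TNF, 1.82 CPM (92 UMIs) in Tnfr2-/- untreated and 6.89 CPM (274 UMIs) in Tnfr2-/- with TNF. The TNF library was higher in both genotypes, 2.90-fold in wildtype (2.47 to 3.43) and 3.79-fold in Tnfr2-/- (2.98 to 4.86). The Tnfr2-/- level was 0.435 of the wildtype level without TNF (0.337 to 0.559) and 0.569 of it with TNF (0.489 to 0.66). Within classes the TNF ratio in Tnfr2-/- was 2.19 in Progenitor.1 (1.00 to 4.39), which stayed under 5 CPM, and 1.49 in Progenitor.2 (1.10 to 2.05). With both progenitor classes weighted equally, Tnfrsf1b did not reach 5 CPM in either Tnfr2-/- library, so that the TNF contrast there was no longer counted. The genotype contrast with TNF was then at a log2 difference of -1.29, past 2-fold. The targeted gene thus still gave UMIs in both Tnfr2-/- libraries, and whether these transcripts encode a receptor cannot be told from 3′ reads.

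Inside the progenitor classes Tnfrsf1b was uneven. In Progenitor.1 it was at 4.99 CPM in wildtype untreated, 12.0 CPM in wildtype with TNF, 0.98 CPM in Tnfr2-/- untreated and 2.15 CPM in Tnfr2-/- with TNF, so the Tnfr2-/- level with TNF was 0.178 of the wildtype level (0.0876 to 0.325). In Progenitor.2 it was at 1.19 CPM, 14.7 CPM, 5.15 CPM and 7.65 CPM in the same order. The first of these is 2 UMIs in 62 cells, and the ratios to it are loose: 12.4 for TNF in wildtype (3.38 to 103) and 4.32 for Tnfr2-/- without TNF (1.14 to 36.6). In Secretory-Reg4-Spdef-Lyz1, Tnfrsf1b was at 5.28 CPM in wildtype untreated, 11.3 CPM in wildtype with TNF and 2.09 CPM (5 UMIs) in Tnfr2-/- untreated. No UMI was found in Progenitor.3 without TNF, which allows up to 2.04 CPM in wildtype and 5.65 CPM in Tnfr2-/-.

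**Figure D3:**
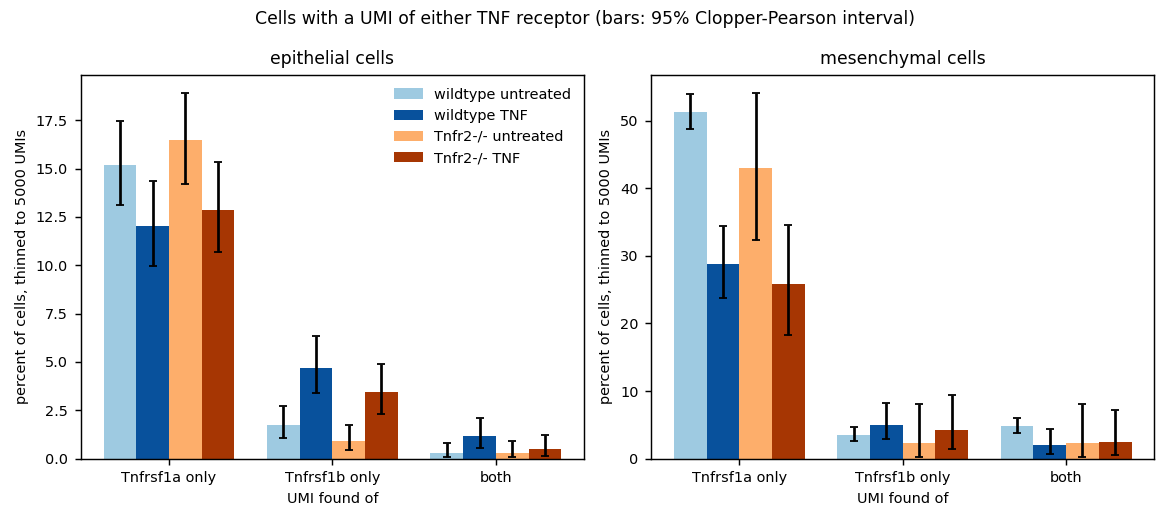
Percent of cells with a UMI of Tnfrsf1a only, Tnfrsf1b only or both, after thinning to 5000 UMIs a cell, in epithelial (left) and mesenchymal cells (right). Bars are 1 library each with 95% Clopper-Pearson intervals. Tnfrsf1a alone was found in 12.0% to 16.5% of epithelial cells and 25.8% to 51.4% of mesenchymal cells, and both receptors together in at most 4.80% of cells of any library.

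Receptor UMIs rarely fell in the same cell at this depth. After thinning, Tnfrsf1b without Tnfrsf1a was found in 1.75% of wildtype untreated epithelial cells (1.06% to 2.72%), 4.70% in wildtype with TNF (3.39% to 6.32%), 0.909% in Tnfr2-/- untreated (0.417% to 1.72%) and 3.43% in Tnfr2-/- with TNF (2.31% to 4.89%). Both receptors were found in 3, 10, 3 and 4 cells of these libraries, and neither in 82.1% to 83.2% of cells. A cell without a UMI is not a cell without the transcript. Here too the thinned cells of wildtype with TNF leave out most Secretory-Reg4-Ang4 cells. Of the cells with a Tnf UMI, 33 of 46 in wildtype untreated, 135 of 180 in wildtype with TNF, 120 of 152 in Tnfr2-/- untreated and 169 of 208 in Tnfr2-/- with TNF had no receptor UMI, in each library a smaller share than among all epithelial cells. That gap was not tested.

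The mesenchymal cells carried more receptor transcript. Tnfrsf1a was at 167 CPM in wildtype untreated, 82.3 CPM in wildtype with TNF, 135 CPM in Tnfr2-/- untreated and 64.3 CPM in Tnfr2-/- with TNF, so both TNF libraries lay below both untreated ones. The ratio of TNF to untreated was 0.494 in wildtype (0.464 to 0.525) and 0.478 in Tnfr2-/- (0.406 to 0.563). The classes differed too: without TNF most wildtype mesenchymal cells were Mesenchyme-Ifitm1 (892 of 1430 cells), and with TNF 304 of 306 wildtype cells and all 122 Tnfr2-/- cells were Mesenchyme-Ptges. Within Mesenchyme-Ptges, Tnfrsf1a was at 163 CPM (56 UMIs) in wildtype untreated, 82.2 CPM in wildtype with TNF, 102 CPM (85 UMIs) in Tnfr2-/- untreated and 64.3 CPM in Tnfr2-/- with TNF. There the log2 difference was -0.98 in wildtype and -0.66 in Tnfr2-/-, both short of the 2-fold limit. The wildtype untreated Mesenchyme-Ptges cells were only 34, with a median of 5755 UMIs.

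Tnfrsf1b in mesenchymal cells was at 18.0 CPM in wildtype untreated, 19.2 CPM in wildtype with TNF, 7.81 CPM (17 UMIs) in Tnfr2-/- untreated and 13.4 CPM (64 UMIs) in Tnfr2-/- with TNF. The TNF ratio was 1.06 in wildtype (0.921 to 1.23) and 1.72 in Tnfr2-/- (0.994 to 3.13). The Tnfr2-/- level without TNF was 0.433 of the wildtype level (0.251 to 0.7). It was low in Mesenchyme-generic, with 3 UMIs (2.29 CPM) against 20.5 CPM in wildtype, and at 16.8 CPM (14 UMIs) against 17.5 CPM (6 UMIs) in Mesenchyme-Ptges.

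Of the adaptors of the TNFR1 death domain, Tradd varied and Ripk1 did not vary by 2-fold in any of the 16 contrasts read (4 contrasts in each of epithelial cells, Progenitor.1, Progenitor.2 and mesenchymal cells). Tradd was at 104 CPM in wildtype untreated epithelial cells, 80.9 CPM in wildtype with TNF, 49.1 CPM in Tnfr2-/- untreated and 56.3 CPM in Tnfr2-/- with TNF. Both Tnfr2-/- levels were below both wildtype levels. The ratio of Tnfr2-/- to wildtype was 0.472 without TNF (0.45 to 0.495) and 0.696 with TNF (0.66 to 0.735). Absorptive cells held 186 CPM of Tradd, the highest level of any class and library, and were 319 of the 1128 epithelial cells in wildtype untreated. With both progenitor classes weighted equally, the log2 difference without TNF was -0.51, short of 2-fold. It was smaller within each of them too, where the ratio was 0.646 in Progenitor.1 (0.604 to 0.691) and 0.732 in Progenitor.2 (0.614 to 0.878). With TNF it was 0.687 in Progenitor.1 (0.586 to 0.801) and 0.465 in Progenitor.2 (0.435 to 0.497), where wildtype cells stood at 127 CPM and Tnfr2-/- cells at 59.3 CPM. Mesenchymal cells held less Tradd, 19.8 to 29.3 CPM.

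Ripk1, a kinase that scaffolds survival signals and can start cell death, stood at 30.0 CPM, 32.9 CPM, 30.6 CPM and 35.8 CPM in epithelial cells of wildtype untreated, wildtype with TNF, Tnfr2-/- untreated and Tnfr2-/- with TNF. In mesenchymal cells it was at 41.6 CPM, 39.2 CPM, 41.3 CPM and 30.2 CPM. By class its level ran from 15.0 CPM in Progenitor.3 of wildtype untreated (22 UMIs) to 49.6 CPM in Mesenchyme-Ptges of the same library (17 UMIs). Progenitor.2 was above Progenitor.1 in each library, at 37.1 to 46.5 CPM against 27.0 to 29.3 CPM.

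Among the TRAF adaptors, Traf1, whose product binds TRAF2 and TNFR2, was almost confined to mesenchymal cells with TNF. It had 110 UMIs (7.48 CPM) in wildtype with TNF and 61 UMIs (12.8 CPM) in Tnfr2-/- with TNF, against 1 UMI (0.0287 CPM) in 1430 wildtype untreated cells and 3 UMIs (1.38 CPM) in 90 Tnfr2-/- untreated cells. The ratios rest on these few untreated UMIs, at 260 in wildtype (45.7 to 10371) and 9.28 in Tnfr2-/- (3.03 to 46.2). All 110 and all 61 of the UMIs with TNF lay in Mesenchyme-Ptges, the class named for the prostaglandin synthase gene Ptges. That class held no Traf1 UMI without TNF in either genotype. In the 34 wildtype cells this allows up to 8.76 CPM, above the level with TNF, so a difference within the class was not detectable in wildtype. In the 37 Tnfr2-/- cells it allows up to 3.60 CPM, and the level with TNF was 3.55 times this limit. The counting error of the level with TNF is not part of that ratio, so it is not a lower bound. After thinning, 7 of 298 mesenchymal cells of wildtype with TNF had a Traf1 UMI and 6 of 120 of Tnfr2-/- with TNF, against 0 of 1417 and 0 of 86 in the untreated libraries. At this depth the zeros allow shares of up to 0.212% and 3.49% of cells with a UMI, by the limit of 3 counts. Without thinning, 1 of 1430 and 3 of 90 untreated cells had a Traf1 UMI, against 63 of 306 and 25 of 122 cells with TNF. Epithelial cells had 2, 2, 2 and 1 Traf1 UMIs in the 4 libraries.

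Traf2, the ligase-recruiting adaptor shared by both receptors, was at 8.19 CPM in wildtype untreated epithelial cells, 12.9 CPM in wildtype with TNF, 10.7 CPM in Tnfr2-/- untreated and 12.0 CPM in Tnfr2-/- with TNF. It was 1.57-fold higher with TNF in wildtype (1.38 to 1.79) and 1.12-fold in Tnfr2-/- (0.988 to 1.27). Without TNF the Tnfr2-/- level was 1.30 times the wildtype level (1.15 to 1.49). The other genes within 10 Mb of Traf2 on chromosome 2 also stood higher in Tnfr2-/-, with a median log2 difference of 0.49 over 159 genes against 0.14 over all genes, and the log2 difference of Traf2 was 0.35, which is -0.14 relative to them. With TNF the log2 difference of Traf2 was -0.10 and that of its 161 neighbours 0.27. For Tnf and Tnfrsf1b the neighbours within 10 Mb had medians of 0.14 and 0.12 without TNF, close to all genes.

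Traf3, the inhibitor of the non-canonical arm, was at 10.3 CPM in wildtype untreated epithelial cells, 19.0 CPM in wildtype with TNF, 17.7 CPM in Tnfr2-/- untreated and 21.0 CPM in Tnfr2-/- with TNF. Wildtype untreated stood below the other three, which lay within 17.7 to 21.0 CPM. Its TNF ratio was 1.84 in wildtype (1.64 to 2.06) and 1.18 in Tnfr2-/- (1.08 to 1.30), and the Tnfr2-/- level without TNF was 1.72 times the wildtype level (1.54 to 1.92). The wildtype ratio was 1.77 in Progenitor.1 (1.505 to 2.08) and 0.804 in Progenitor.2 (0.576 to 1.15). Mesenchymal cells held 25.3 to 39.5 CPM.

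Set against all genes, the 8 transcripts were read with 1 rule: at least 5 CPM in either library and a difference of at least 1 in log2(CPM + 1). In epithelial cells, 2 of 7 members that reached 5 CPM differed for TNF in wildtype (Tnf and Tnfrsf1b, both higher), where 3.99% of all genes differed. For TNF in Tnfr2-/- it was 1 of 7 (Tnfrsf1b, higher) against 13.5% of all genes. For Tnfr2-/- against wildtype it was 2 of 6 without TNF (Tnf higher, Tradd lower) against 7.04%, and 0 of 7 with TNF against 12.6%. The median log2 difference of the members at 5 CPM was 0.59, 0.22, 0.24 and 0.06 in these 4 contrasts, beside 0.06, -0.15, 0.14 and -0.13 over all genes. Tnf lay above 99.4% of genes for TNF in wildtype and above 92.4% for TNF in Tnfr2-/-, and Tnfrsf1b above 98.4% and 98.2%.

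In Progenitor.1, 2 of 7 members differed for TNF in wildtype (3.21% of genes), 0 of 6 for TNF in Tnfr2-/- (2.66%), 1 of 6 for genotype without TNF (3.58%) and 1 of 7 for genotype with TNF (4.81%). In Progenitor.2 the counts were 1 of 7 (9.5%), 0 of 7 (2.42%), 1 of 7 (10.9%) and 1 of 7 (8.58%) in the same order. In mesenchymal cells 2 of 7 members differed for TNF in wildtype (14% of genes) and 2 of 8 for TNF in Tnfr2-/- (15.1%), in both cases Traf1 higher and Tnfrsf1a lower. For genotype in mesenchymal cells it was 1 of 6 without TNF (Tnfrsf1b lower, 9.48% of genes) and 1 of 8 with TNF (Tnf higher, 17.1%). That Tnf difference was no longer counted in the cells with no UMI of Krt8, Krt18 or Epcam, where Tnf stayed under 5 CPM in both libraries. The contrasts share libraries, so these counts are not independent of each other.

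**Figure D4:**
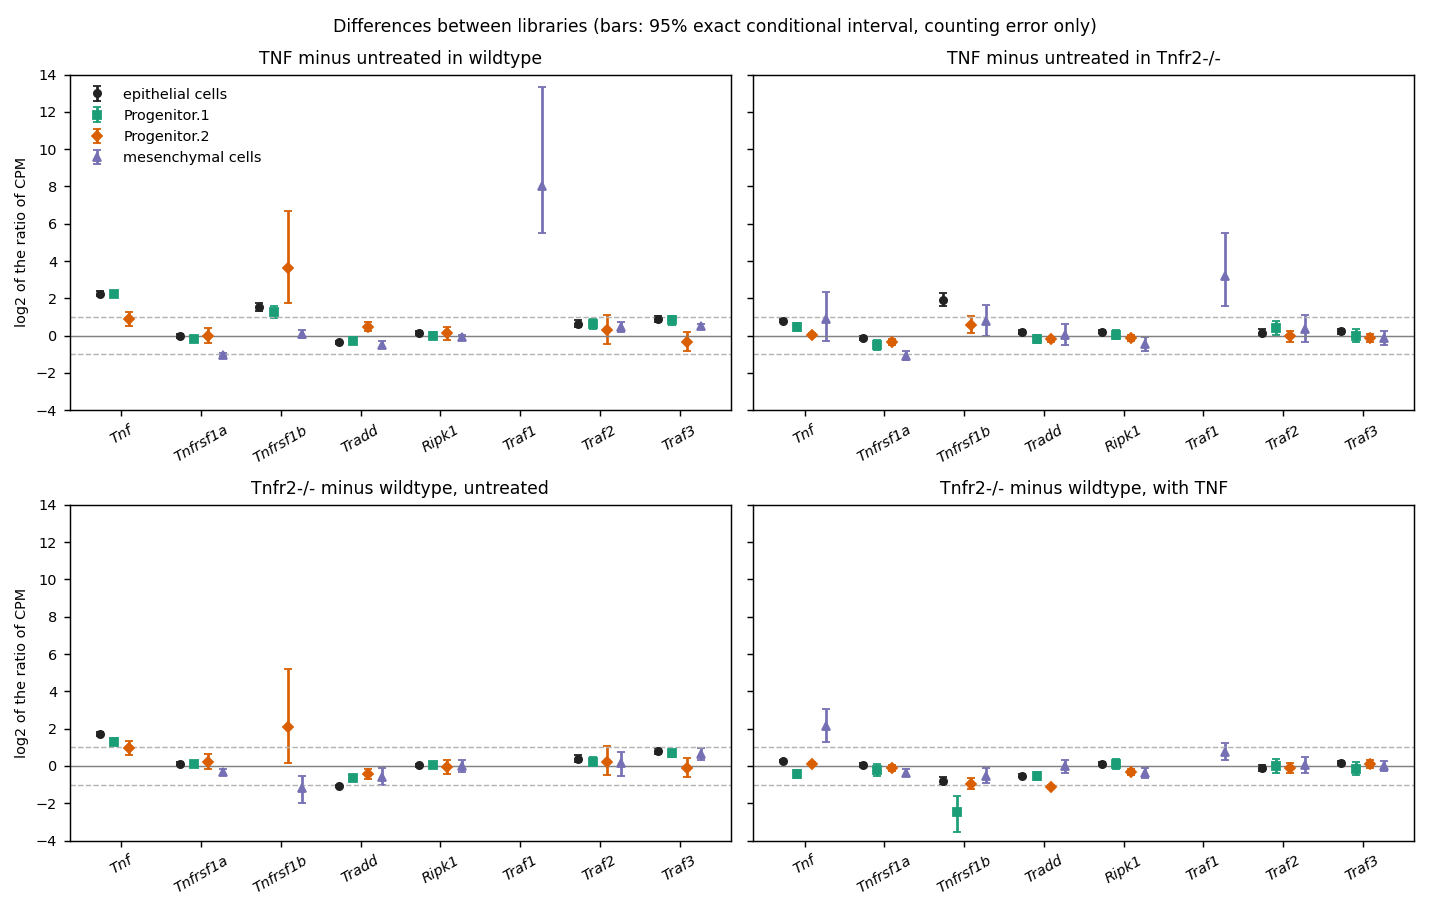
Ratio of CPM between libraries on a log2 axis, for the members at 5 CPM or more in either library, in epithelial cells, Progenitor.1, Progenitor.2 and mesenchymal cells. Bars are 95% exact conditional intervals and dashed lines mark 2-fold. Tnf with TNF in wildtype was 4.78-fold higher in epithelial cells, and the Traf1 ratio of 260 in wildtype mesenchymal cells rests on 1 untreated UMI.

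**Figure D5:**
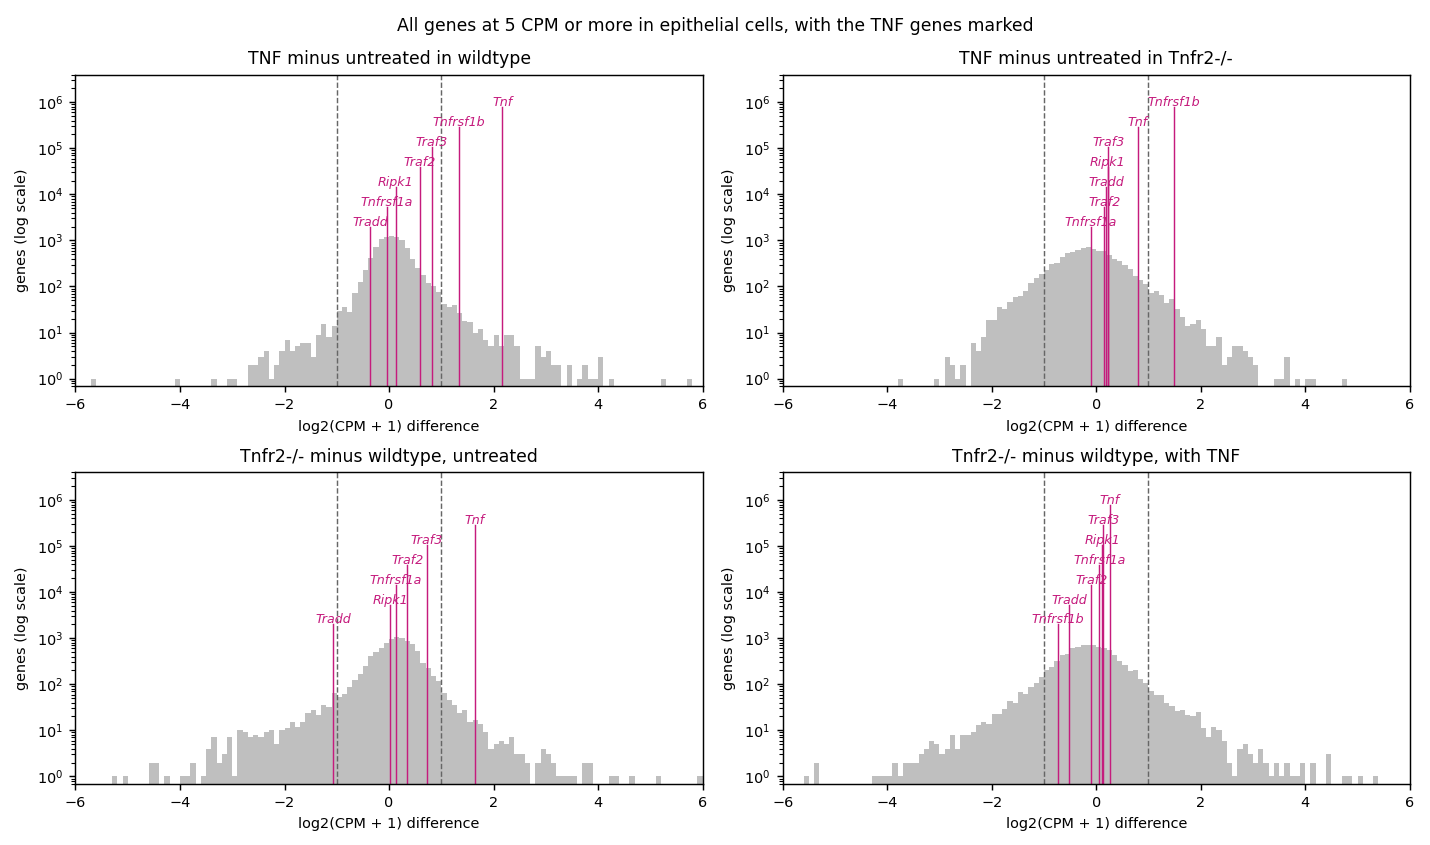
Distribution of log2(CPM + 1) differences over all genes at 5 CPM or more in epithelial cells (grey, log axis of gene counts, bins of 0.1), with the members as lines whose heights only separate the names. Tnf lay above 99.4% of genes for TNF in wildtype, and above 99.1% for Tnfr2-/- without TNF, where Tradd lay above 3.42%.

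The other genes of the pathway were read as 8 lists with 54 genes, with the same rule. Their counts are in 1 direction where higher or lower is named, so counts of all genes are given by direction. Over all genes in epithelial cells, 282 of 9565 were higher and 100 lower with TNF in wildtype. In Tnfr2-/- these were 479 and 836 of 9717. For TNF in epithelial cells, the genes at least 2-fold higher in both genotypes were Tnfaip3 and Tnip1, of the 7 deubiquitinases and ubiquitin binders that restrain this signal. Tnfaip3, which encodes A20, was at 23.6 CPM and 58.9 CPM in wildtype untreated and with TNF, and at 31.3 CPM and 93.0 CPM in Tnfr2-/-. Tnip1, which encodes an A20-binding protein, was at 21.7 CPM and 49.3 CPM in wildtype and at 31.2 CPM and 68.8 CPM in Tnfr2-/-. That list had 2 of 7 genes higher in wildtype and 3 of 7 in Tnfr2-/-, where the other gene was the deubiquitinase Otud7b (27.1 CPM and 59.8 CPM). Within Progenitor.1 and within Progenitor.2, 2 of 7 were higher in wildtype and 0 of 7 in Tnfr2-/-. Over all genes, 207 of 9500 in Progenitor.1 and 514 of 9228 in Progenitor.2 were higher in wildtype. In Tnfr2-/- these were 125 of 9534 and 92 of 9242. In these classes the log2 difference of Tnfaip3 in Tnfr2-/- was 0.89 and 0.56, and that of Tnip1 0.65 and 0.30.

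Of 13 ubiquitin ligases and kinases at the receptor, 1 was higher with TNF in wildtype epithelial cells and 0 in Tnfr2-/-. The 1 was Birc3, an inhibitor of apoptosis protein that binds TRAF2, at 10.6 CPM and 28.1 CPM in wildtype and 13.5 CPM and 25.6 CPM in Tnfr2-/-. Of 3 genes of the non-canonical arm, 2 reached 5 CPM, and both were higher in wildtype and neither in Tnfr2-/-. Nfkb2, which encodes p100, was at 14.3 CPM and 43.1 CPM in wildtype and 33.7 CPM and 58.0 CPM in Tnfr2-/-, and was thus 2-fold higher in Tnfr2-/- without TNF. Relb, the partner of its processed form, was at 25.9 CPM and 62.8 CPM in wildtype and 25.1 CPM and 36.9 CPM in Tnfr2-/-. In wildtype both were 2-fold higher with TNF in Progenitor.1 and neither in Progenitor.2, where the log2 differences were 0.60 for Nfkb2 and 0.71 for Relb. Whether these differences are unequal between the genotypes was not tested.

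None of the 5 death complex genes differed 2-fold in epithelial cells in any of the 4 contrasts, and neither did the 3 of 4 other TRAF genes at 5 CPM. Between 3.99% and 13.5% of all genes differed in these contrasts. Lta and Ltb, ligands related to TNF, did not reach 5 CPM in epithelial or in mesenchymal cells. Of the 8 genes of TNF transcript decay and shedding, 1 was higher for TNF in wildtype epithelial cells, Zfp36l1, whose product promotes decay of AU-rich transcripts (53.2 CPM and 121 CPM). In this list 0 differed for TNF in Tnfr2-/-, 1 was higher in Tnfr2-/- without TNF, Rhbdf1 (9.91 CPM and 21.2 CPM), and 0 differed with TNF. Of 12 other receptors of the family, 5 reached 5 CPM in epithelial cells. Of these, 1 was lower in Tnfr2-/- with TNF, Tnfrsf11a, which encodes RANK, at 43.4 CPM in wildtype and 11.3 CPM in Tnfr2-/-. Over all genes in epithelial cells, 310 of 9699 were higher and 373 lower in Tnfr2-/- without TNF. With TNF these were 475 and 753 of 9747.

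In mesenchymal cells, Tnfrsf19, another receptor of the family, was lower with TNF in both genotypes, from 24.0 CPM to 0.884 CPM in wildtype and from 18.4 CPM to 3.56 CPM in Tnfr2-/-. Of the 7 genes of this list at 5 CPM there, Tnfrsf19 included, 2 were higher and 2 lower with TNF in wildtype, and 0 and 2 in Tnfr2-/-. Over all genes in mesenchymal cells, 636 of 10306 were higher and 805 lower with TNF in wildtype. In Tnfr2-/- these were 726 and 823 of 10234. Timp3, an inhibitor of the protease that sheds TNF, was lower in Tnfr2-/- in both treatments. It was at 0.919 CPM against 18.1 CPM without TNF and 6.497 CPM against 16.0 CPM with TNF. The 0.919 CPM is 2 UMIs in 90 cells. Mesenchyme-Ifitm1 cells were 892 of 1430 mesenchymal cells in wildtype untreated and 1 of 90 in Tnfr2-/- untreated. Neither Tnfrsf19 nor Timp3 was read within a mesenchymal class, so the part of class make-up was not tested. Of the non-canonical genes at 5 CPM, 1 of 2 was higher with TNF in wildtype, Nfkb2 (38.5 CPM and 96.7 CPM), and 0 of 3 in Tnfr2-/-. The pathway genes named here other than Tnfaip3, Tnip1, Lta and Ltb were picked after their values were seen.

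Genes with the most similar pattern were sought over 26 sums of a class in a library, among 10414 genes. Among the nearest to Tnf were Itgb6 (Pearson r 0.93) and Nectin2 (0.91), which encode epithelial surface proteins. Nearest to Tnfrsf1b were Zyx (0.83), Birc3 (0.79) and Cd47 (0.78). Nearest to Traf1 were 1700012B09Rik (0.91), Nppc (0.90) and Fabp4 (0.77), all at low mean levels of 5.27 to 7.66 CPM. The sums share libraries, cell numbers and depth, so these coefficients are a description.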

How the data were processed

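Colonic organoid cells of the 4 cultures were read as 10x Genomics 3′ single-cell libraries. The deposited values are whole-number UMI counts per gene and cell, which the authors made with Cell Ranger 5.0.0 against mm10 (submitters' processing notes). The study's methods state that cells of low count were left out. They also describe leaving out mesenchymal cells and epithelial-mesenchymal doublets. The matrix still holds mesenchymal cells, so whether the doublets were taken out of it cannot be told. No doublet caller was run. Cell classes are the authors' annotation. No source used here gives the annotation release.

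For each library, the UMIs of a gene were added up within each class and within the epithelial and mesenchymal classes together, and scaled to the total of the same cells (CPM). Only sums of at least 30 cells were used, and the 35 cells without a class were left out. The closing observations set both rules aside to describe those cells. Genes at 5 CPM or more in either library were compared on the log2(CPM + 1) scale, which understates differences of low genes, and counted at 1 or more. With 1 library a group no test was run. Poisson, Clopper-Pearson and conditional intervals were exact at 95%, and 3 counts gave the upper limit of a 0. For shares, each cell was thinned to 5000 UMIs without replacement.

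By rule, pathway genes were named where they differed at least 2-fold the same way in both pairs of a comparison in epithelial cells, at most 4 a list, which gave Tnfaip3 and Tnip1. The other pathway genes with values were picked after these were seen. The 3 nearest genes were to be named for each of Tnf, Tnfrsf1b and Traf1, and 1 of these is not reported here. The members and lists were chosen with earlier results of these data known. Alternatives were other pseudocounts, minimums, thinning depths, cell filters, weightings and scalings (TMM from edgeR 4.0.16, median of ratios from DESeq2 1.42.0). Python 3.11.15, NumPy 2.4.6 and SciPy 1.17.1 were used, and the comparison was tested on simulated data.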

Additional observations from a re-analysis of the deposited data

Results flagged for a closer look

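For 52 pairs, the difference of a member under 1 contrast was set beside its difference under the same contrast in the other genotype or treatment. In 4 of them the directions were opposite and both counting intervals excluded no difference. Pairs of opposite direction in which either interval included no difference were not counted. With 1 library a group the gap between the paired differences was not tested. In epithelial cells, Tradd was lower with TNF in wildtype (log2 difference -0.36) and higher in Tnfr2-/- (0.19), so that the second exceeded the first by 0.55. In Progenitor.1, Tnf was higher in Tnfr2-/- than in wildtype without TNF (1.25) and lower with TNF (-0.43), a gap of -1.68. In Progenitor.2, Tnfrsf1b was higher in Tnfr2-/- without TNF (1.49) and lower with TNF (-0.86), a gap of -2.35, where the first value rests on 2 UMIs in wildtype untreated. In Progenitor.2, Tradd was higher with TNF in wildtype (0.46) and lower in Tnfr2-/- (-0.19), a gap of -0.65.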

How the results depend on the processing

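No direction of a member called at least 2-fold different was reversed under an alternative in which it still reached the minimum. Values under the minimum were not compared. Among those, Tnf in mesenchymal cells with no UMI of Krt8, Krt18 or Epcam had the other direction for genotype with TNF. It was at 2.12 CPM in Tnfr2-/- and 3.25 CPM in wildtype there, on 2 and 7 UMIs and with overlapping intervals. Members counted as at least 2-fold different were fewer with stricter settings. In epithelial cells the count for TNF in wildtype was 1 (Tnf) in place of 2 with a pseudocount of 10 CPM and with a minimum of 20 CPM, and for TNF in Tnfr2-/- 0 in place of 1 with either and with Progenitor.1 and Progenitor.2 weighted equally. For genotype without TNF it was 1 (Tnf) in place of 2 with a pseudocount of 10 CPM and with equal weights, where Tradd was at -0.51, and with TNF it was 1 (Tnfrsf1b, -1.29) in place of 0 with equal weights. In mesenchymal cells, whose alternatives were chosen after seeing the data, the count for TNF in wildtype was 0 in place of 2 with a pseudocount of 10 CPM, and 1 with a minimum of 20 CPM, with a mean over cells, in cells with no UMI of Krt8, Krt18 or Epcam and in Mesenchyme-Ptges only. For TNF in Tnfr2-/- it was 1 in place of 2 with a pseudocount of 10 CPM, a minimum of 20 CPM and in cells without such UMIs. For genotype without TNF it was 0 in place of 1 with a pseudocount of 10 CPM, a minimum of 20 CPM and in cells without such UMIs, and 3 with no minimum. For genotype with TNF it was 0 in place of 1 with a pseudocount of 10 CPM, a minimum of 20 CPM, a mean over cells and in cells without such UMIs. The cause of these shifts was not tested, other than that a larger pseudocount shrinks every difference and a higher minimum leaves out the low genes. TMM and median-of-ratios scaling turned the direction of 3 small epithelial differences: Tnfrsf1a for TNF in Tnfr2-/- (-0.11 to 0.05 and 0.06), Ripk1 for genotype without TNF (0.03 to -0.07 and -0.09) and Traf2 for genotype with TNF (-0.10 to 0.05 and 0.04). Of 265 single epithelial values under an alternative, 206 lay within the counting interval of the value reported and 59 outside it, and of 218 mesenchymal values 193 and 25. Of 128 shares at other thinning depths, 107 lay outside it, since a share of cells with a UMI depends on depth. No paired analysis was possible because each group has 1 library. Leaving out a replicate was not possible for the same reason. Depth limited Traf1 in epithelial cells, Tnf in mesenchymal cells and the values of Mesenchyme-Ptges without TNF.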

Other observations

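The 35 cells without a class were in wildtype untreated (31 cells) and Tnfr2-/- untreated (4 cells). Their median depths were 66566 and 88648 UMIs a cell, above the median of each class in the same library. Whether they are doublets was not tested. In the 31 cells Tnf was at 17.6 CPM (37 UMIs), Tnfrsf1a at 73.4 CPM, Tnfrsf1b at 6.67 CPM and Tradd at 63.4 CPM. In the 4 cells Tnf had 12 UMIs (34.0 CPM), and Tnfrsf1a was at 90.6 CPM.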
